A study of Mus musculus with 7 samples.

Results

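The antigen receptor loci are the 6 stretches of the mouse genome in which T and B lymphocytes assemble their receptors from variable (V), diversity (D) and joining (J) segments. They were examined here by the accessibility of their chromatin in helminth-responding CD4+ T cells. Regions of the deposited ATAC-seq table were taken when they overlapped chromosome 14 from 52.4 to 54.25 Mb (Tcra/Tcrd), chromosome 6 from 40.89 to 41.56 Mb (Tcrb), chromosome 13 from 19.18 to 19.36 Mb (Tcrg), chromosome 12 from 113.2 to 116.05 Mb (Igh), chromosome 6 from 67.55 to 70.73 Mb (Igk) or chromosome 16 from 19.0 to 19.27 Mb (Igl), in mm10 coordinates. This rule uses position alone and gave 312 of the 113820 regions in the table. The immunoglobulin heavy chain locus held 162 of them (51.9%), Tcra/Tcrd 70, Tcrb 60, Igk 11, Tcrg 8 and Igl 1.

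ATAC-seq counts the insertions of a transposase, which cuts preferentially where DNA is not wrapped in nucleosomes, so that the density of insertions measures how open a region is. The study compared CD4+ T cells that expressed different cytokines or came from different tissues on day 8 after infection of reporter mice with 500 L3 larvae of the roundworm Nippostrongylus brasiliensis. Each of the 7 libraries was made from 50000 sorted cells that were CD3ε+ and CD4+ and lacked CD8, B220, NK1.1, CD11b, CD11c and Ter119. The mice of the ATAC-seq came from a single experiment.

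The LN IL-4+ population (n = 2) was GFP+ cells from the mediastinal lymph node, which drains the lung, and the lung IL-4+ population (n = 3) was GFP+ cells from the lung. Both came from the IL-4-4get GFP reporter mouse on the C57BL/6 background, in which cells that transcribe the Il4 gene turn green. The lung IFNγ+ population (n = 2) was YFP+ cells from the lung of the IFN-gamma-Great YFP reporter mouse, also C57BL/6. All 3 populations were infected, and no uninfected or reporter-negative library was analysed here. Lung IL-4+ and LN IL-4+ cells therefore differ in tissue, whereas lung IFNγ+ and lung IL-4+ cells differ in the reporter line as well as in the cytokine. Lung IFNγ+ and LN IL-4+ cells differ in the tissue, the reporter line and the cytokine, and within each of these comparisons the factors cannot be told apart. Nothing in the labels says which libraries share a mouse, so p-values measure the spread between these libraries only.

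Tcra and Tcrb encode the 2 chains of the receptor that CD4+ T cells carry, Tcrg and Tcrd those of γδ T cells, and Igh, Igk and Igl the chains of antibodies. During lymphocyte development the RAG recombinase cuts beside a V, a D or a J segment at a recombination signal, which is a heptamer and a nonamer separated by a spacer of fixed length, and only accessible signals are cut. Immunoglobulin V segments are joined in developing B cells and not in T cells, and mature CD4+ T cells have completed the assembly of their own receptor genes. Each locus also holds enhancers at known places, between the last J segment and the first constant gene (Igh, Igk) or beyond the constant genes (Tcra, Tcrb, Igh).

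The DNA directly behind the V segments of the heavy chain locus largely separated the segments with a region in the table from those without one. Regions were merged over the libraries, so a segment called open here may be open in 1 population only. The 39 bases that follow the last base of 8 V genes and 1 V pseudogene are given in the lines that follow, read from the reference sequence of mm10 (minus strand of chromosome 12, 5′ to 3′ in the direction of the gene). The first 7 capitals are the heptamer of the recombination signal. The second run of capitals is positions 13 to 18, counted from 1 at the first base of the heptamer, where many signals read ACCACA. Those letters are the reverse complement of TGTGGT, the core letters of the motif of Runx transcription factors. Ighv9-4, Ighv14-3 and Ighv1-5 are shown because they were among the most changed regions, and Ighv1-11 against Ighv1-18 and Ighv1-26 because they are nearly identical and differ in accessibility. Ighv1-16 and Ighv1-56 are shown because each departs from ACCACA at a single letter, and the pseudogene Ighv12-1 because it was open without these letters.
Ighv9-4, chr12:114299922-114299960: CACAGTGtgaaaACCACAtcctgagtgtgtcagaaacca
Ighv14-3, chr12:114059806-114059844: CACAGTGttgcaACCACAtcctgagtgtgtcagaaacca
Ighv1-5, chr12:114513291-114513329: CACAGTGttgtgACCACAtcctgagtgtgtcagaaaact
Ighv1-11, chr12:114612204-114612242: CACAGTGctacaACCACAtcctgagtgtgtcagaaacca
Ighv1-18, chr12:114682593-114682631: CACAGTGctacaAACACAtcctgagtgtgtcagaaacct
Ighv1-26, chr12:114788333-114788371: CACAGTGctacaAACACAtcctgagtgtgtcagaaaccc
Ighv1-16, chr12:114665833-114665871: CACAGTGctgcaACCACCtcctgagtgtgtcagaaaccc
Ighv1-56, chr12:115242763-115242801: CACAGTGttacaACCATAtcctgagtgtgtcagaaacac
Ighv12-1, chr12:114107220-114107258: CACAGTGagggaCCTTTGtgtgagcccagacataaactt

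Of the 115 heavy chain V genes that are not annotated as pseudogenes, 47 carried ACCACA within these 39 bases, all of them at position 13. A region of the table lay over the signal in 43 of the 47 (91.5%), against 14 of the 68 genes without the letters (20.6%). With the pseudogenes included, the counts were 54 of 71 (76.1%) and 20 of 125 (16%), and 66 of the 71 matches began at position 13. Ighv1-13 and Ighv5-8 have annotated entries on both strands, and their plus-strand entries are counted among the genes without the letters. Most genes with the letters were therefore open and most genes without them closed. Among the genes that are not pseudogenes, the letters occurred in the Ighv1, Ighv9 and Ighv14 families only. Of the families without them, Ighv8 had a region at the signal in 5 of 9 genes, Ighv7 in 2 of 4 and Ighv11 in 2 of 2. Ighv2 had 0 of 9, Ighv3 0 of 6 and Ighv6 0 of 5. Openness thus also differed by family apart from the letters. This comparison was chosen after the values were seen, and because V segments arose by duplication and share long stretches, they are not independent of each other and no test is given.

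The same split was present within a single family. The Ighv1 family is the largest of the locus, and 36 of its 40 genes with ACCACA (90%) had a region at the signal, against 1 of its 14 genes without it (7.14%). Of those 14, 10 read AACACA and had 0 regions at the signal. Ighv1-18 differs from Ighv1-11 over the 39 bases by C14A and A39T, with the base of Ighv1-11 first, and Ighv1-26 differs from it by C14A and A39C. The region over Ighv1-11 (chr12:114611663-114612452) had a log2 density of 1.87 and 1.44 in LN IL-4+, 2.44, 1.97 and 2.14 in lung IL-4+ and 3.87 and 3.33 in lung IFNγ+ libraries, whereas neither Ighv1-18 nor Ighv1-26 had a region at its signal. Ighv1-16 differs from Ighv1-63, its closest match with ACCACA, by T8C and A18C, and neither of these genes had a region at its signal. Ighv1-56, with C17T and C38A relative to Ighv1-75, had a region there, with log2 densities between 1.43 and 3.17. The last 2 genes of the 14, Ighv1-13 and Ighv1-24, read other letters at these positions and had no region at the signal. The Ighv1-13 entry counted here is annotated on the plus strand, against the direction of the array. Its minus-strand entry at the same place, a pseudogene, reads ACCACA at position 13 and had no region, so it runs against the split.

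Reads that map to more than 1 place were removed by the authors, so a segment with a near-identical copy could lack a region for that reason. The share of 50-base stretches that occur once in the genome, within 401 bp around the end of the segment, was therefore computed for each V gene. It was higher in the heavy chain V genes without a region (median 90.4%) than in those with a region (median 77.0%). Among genes for which at least 90% of the stretches occur once, all 10 with ACCACA had a region at the signal and 7 of 37 without it did. Median mappability over all heavy chain V genes was thus no lower in those that lacked a region. Within Ighv1 the medians were 76.4% without and 67.3% with a region. Only 2 Ighv1 genes without ACCACA reached 90%, the plus-strand entry of Ighv1-13 among them. The share was 100% at Ighv1-11, 77.3% at Ighv1-18 and 56.2% at Ighv1-26, and how far mapping bears on these genes was not tested.

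The combination is rare on these chromosomes. A CACAGTG heptamer occurred 30943 times on chromosome 12 on either strand, the Igh array included, and ACCACA began at position 13 behind 67 of them (0.217%). Of the 71 Igh V segments with ACCACA, 56 had this exact heptamer, so the array itself holds many of the 67. On chromosomes 6, 13, 14 and 16, which carry the other loci, the share was between 0.0163% and 0.0442%. Of the V segments of Tcra/Tcrd, Tcrb, Tcrg, Igk and Igl, 0 had ACCACA at position 13. Counted anywhere in the 39 bases, as for Igh, the letters were behind 8 V genes of Tcra/Tcrd, 1 V pseudogene of Tcrb and 4 V pseudogenes of Igk, and 0 of these had a region. In the regions themselves, TGTGGT on either strand was present in the central 401 bp of 65 of the 82 heavy chain V regions (79.3%), against 33.6% of all regions in the table, 50% of the 26 Tcrb V regions and 39.3% of the 28 Tcra/Tcrd V regions. The heptamer CACAGTG was in 68.3% of the heavy chain V regions and 12.5% of all regions. ETS letters (AGGAAGT) ran the other way, at 4.88% against 16.3%, and the octamer ATGCAAAT, found in immunoglobulin promoters, was in 4 of the 82 (4.88%, against 2.35% of all regions).

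Where the openings lay on the V segment differed between the loci. In Igh, the centre of the region was nearer to the 3′ end of the segment, where the recombination signal lies, in 72 of 77 V segments with a region, at a median distance of 39 bp from the end and 425 bp from the start. In Tcra/Tcrd it was nearer to the 5′ start, where the promoter lies, in 21 of 24, with medians of 115 bp from the start and 629 bp from the end. Tcrb V segments were mixed, with 11 of 20 centres nearer to the start and medians of 264 bp and 350 bp. The regions that overlapped heavy chain V segments were thus mostly centred near the signal rather than the start of the segment. Regions that lay wholly upstream of a segment were not assessed as promoters.

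**Figure D1:**
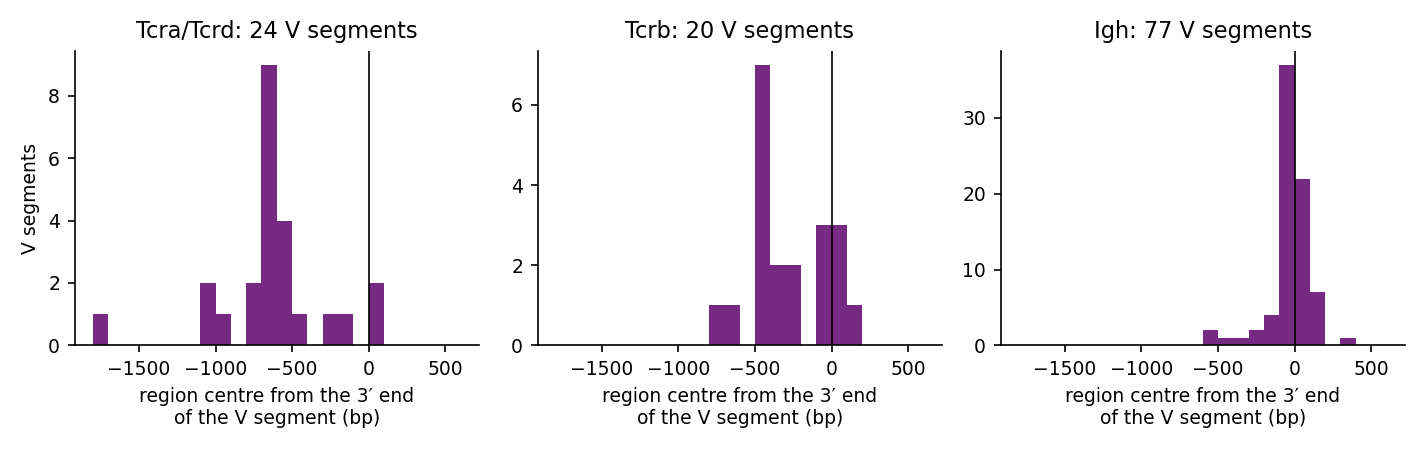
Number of V segments (y axis) by the distance in bp from the 3′ end of the segment to the centre of the region over it (x axis, negative towards the start of the gene) for Tcra/Tcrd, Tcrb and Igh. The 77 Igh segments pile up at the 3′ end, with a median distance of 39 bp, whereas most of the 24 Tcra/Tcrd segments lie around the start of the gene and the 20 Tcrb segments are split.

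Coverage by open regions differed widely between the loci. Tcrb was the most densely covered, with 8.96 regions per 100 kb, followed by Igh with 5.68, Tcrg with 4.44 and Tcra/Tcrd with 3.78, whereas Igl had 0.370 and Igk 0.346. A V gene overlapped a region in 19 of 22 cases in Tcrb, 58 of 115 in Igh, 23 of 115 in Tcra/Tcrd and 1 of 6 in Tcrg. No V gene of the light chain loci overlapped a region, with 0 of 102 in Igk and 0 of 3 in Igl. Uniqueness of sequence differs between these arrays, since the median share of unique stretches was 82.1% at Igk V genes, 100% at Tcrb V genes and 32.2% at Tcra/Tcrd V genes without a region at the signal, so that the count of open Tcra V segments in particular is limited by mapping.

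The deposited values are log2 densities, in normalized insertions per kb, scaled by the authors to a common library size (log2 CPM per kb). A mean density of at least 5 in at least 1 population was reached by 172 of the 312 regions (55.1%), against 58.2% of all regions in the table. By locus this was 108 of 162 in Igh (66.7%), 37 of 60 in Tcrb (61.7%), 4 of 8 in Tcrg, 20 of 70 in Tcra/Tcrd (28.6%) and 3 of 11 in Igk. Heavy chain V segments reached it in 67 of 82 cases (81.7%). It can be reached through 1 population alone. At Ighv1-28, for example, the mean log2 density was 0.44 in LN IL-4+, 0.88 in lung IL-4+ and 3.79 in lung IFNγ+ cells. These values describe openness and say nothing of transcription or recombination of the segments.

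Depth, rebuilt from the ties between values, was between 14005923 and 91681969 insertions per library, and these rebuilt counts are lower bounds. The libraries also fell into 2 sorts by the spread of their insertion densities before normalization. In 3 libraries (replicate 1 of LN IL-4+, with replicates 2 and 3 of lung IL-4+) the upper quartile of the rebuilt density over all regions exceeded the lower quartile by 1.65 to 1.74 on the log2 scale (called narrow here). In the other 4 libraries, both IFNγ+ libraries among them, it did so by 2.89 to 3.07 (called wide). Because the IFNγ+ population holds wide libraries only, the results on groups of regions are also given with the wide libraries alone or with the sort as a covariate, and for single regions the value with the covariate is given where it ends a call or moves a fold by more than 1.5 times.

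The summed accessibility of a locus was taken as the normalized insertions over all its regions, on the CPM scale. For Igh it was 520 and 672 in the LN IL-4+ libraries, 756, 627 and 547 in the lung IL-4+ libraries and 1051 and 919 in the lung IFNγ+ libraries. Both IFNγ+ libraries lay above all others, and the population means were 596 ± 108 (SD, n = 2), 644 ± 105 (n = 3) and 985 ± 93.3 (n = 2). The IFNγ+ sum was 1.54-fold that of lung IL-4+ cells (exact two-sided permutation p = 0.10, 0.450 after Benjamini-Hochberg adjustment over 18 comparisons of 6 loci and 3 pairs of populations) and 1.66-fold that of LN IL-4+ cells (exact permutation p = 0.33, adjusted 0.655). These p-values are the smallest that 3 against 2 and 2 against 2 libraries allow, so no comparison of sums could pass a threshold of 0.05. Sums also differed with the sort of library, between 520 and 627 in the narrow and between 672 and 1051 in the wide libraries.

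Tcrg followed the order LN IL-4+, lung IL-4+, lung IFNγ+. Its sum was 18.9 and 15.3, then 32.5, 30.7 and 25.2, then 43.4 and 43.5, without overlap between populations. Lung IL-4+ cells were 1.72-fold above LN IL-4+ cells (exact permutation p = 0.10, adjusted 0.450), and lung IFNγ+ cells were 1.48-fold above lung IL-4+ cells (exact permutation p = 0.10, adjusted 0.450). Narrow and wide libraries were not separated at Tcrg, with ranges of 18.9 to 30.7 and 15.3 to 43.5.

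Tcra/Tcrd and Tcrb did not share this order. Tcra/Tcrd was at 1018 and 652 in LN IL-4+, 669, 922 and 965 in lung IL-4+ and 553 and 592 in lung IFNγ+ libraries, which sorted by the spread of the library: 922 to 1018 in the 3 narrow and 553 to 669 in the 4 wide libraries. Tcrb differed least, between 477 and 592 over all 7 libraries, and the IFNγ+ libraries at 567 and 590 lay within the range of the LN IL-4+ libraries at 483 and 592. Igk was at 33.9 and 57.6, then 44.3, 28.9 and 31.8, then 58.4 and 52.6, again with every narrow library (28.9 to 33.9) below every wide one (44.3 to 58.4). For the single weak region of Igl the sums were between 0.126 and 1.79, with overlapping populations.

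**Figure D2:**
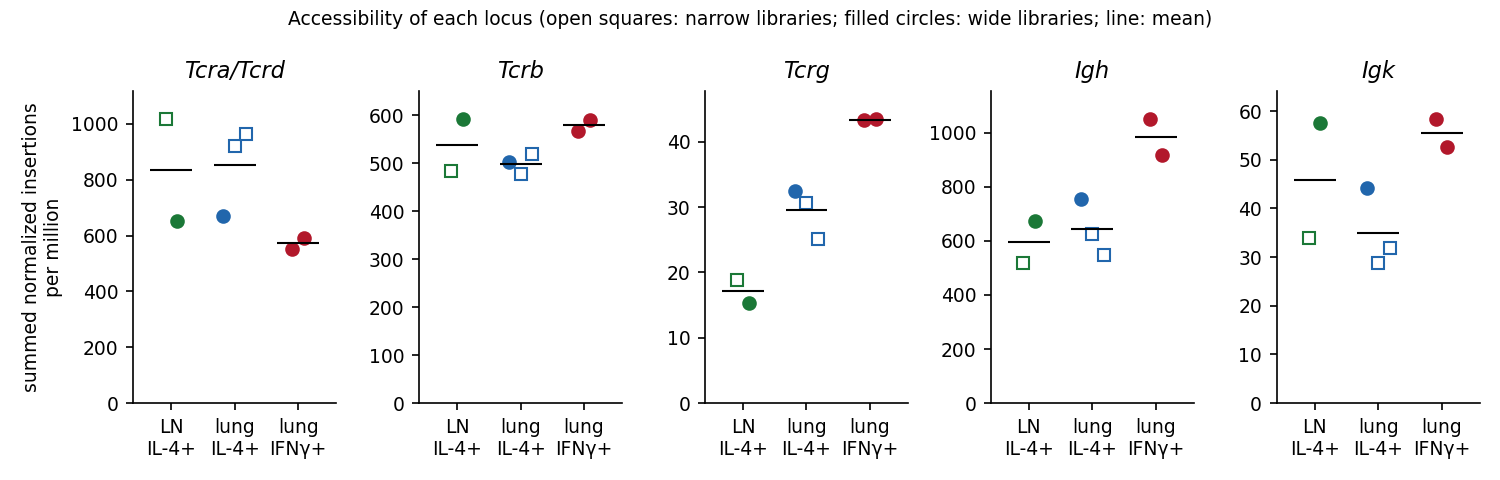
Summed normalized insertions on the CPM scale (y axis, from 0) over the regions of 5 loci in each library, by population, with open squares for narrow libraries, filled circles for wide libraries and a line at the population mean. The lung IFNγ+ libraries are highest at Igh (919 and 1051) and Tcrg (43.4 and 43.5), whereas at Tcra/Tcrd the 3 narrow libraries, at 922 to 1018, lie above the 4 wide ones.

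Igh differed between populations mainly at its V segments. The 82 V regions summed to 200 and 292 in LN IL-4+, 361, 273 and 231 in lung IL-4+ and 627 and 532 in lung IFNγ+ libraries, so that the IFNγ+ mean was 2.01-fold that of lung IL-4+ and 2.36-fold that of LN IL-4+ cells. The 63 regions between segments gave 86.3 and 135, then 140, 108 and 97, then 179 and 161. The 6 regions at the D and J segments were also highest in the IFNγ+ libraries, at 9.25 and 12.2 in LN IL-4+, 10.9, 14.7 and 8.08 in lung IL-4+ and 18 and 16.9 in lung IFNγ+ libraries. The other intervals did not share this. The 2 regions of other genes were at 65.1 and 99.2, then 102, 93.8 and 83.9, then 101 and 94.0, and the 1 region of a constant gene at 0.368 to 3.72 with the IFNγ+ libraries at 2.33 and 2.20. The 5 regions beyond Igha, the interval that holds the 3′ regulatory region of the locus, were between 88.4 and 107 in every library, with the IFNγ+ libraries at 96.2 and 88.4. The 3 regions of the intron between Ighj4 and Ighm, where the intronic heavy chain enhancer lies, were lowest in the IFNγ+ libraries, at 26.3 and 24.2, against 31.5 to 55.8 in the others. No test was run on these intervals.

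Single regions were tested with limma over all 113820 regions, and a call needed a Benjamini-Hochberg adjusted p below 0.05 and a difference of at least 3-fold. Between the lung populations, 7 antigen receptor regions (2.24%) were called higher in IFNγ+ than in IL-4+ cells, where 0.387% of all regions were. All 7 lay in Igh, 6 of them over V segments, which is 7.32% of the 82 V regions. None was called higher in lung IL-4+ cells by limma (0.108% of all regions were), where 3 had an unadjusted p below 0.05 and a 3-fold difference, limma with array weights called 4 and voom on the rebuilt counts called 0. Every IFNγ+ library lay above every lung IL-4+ library in 157 of the 312 regions (50.3%) and in 64 of the 82 heavy chain V regions (78.0%), against 21.2% of all regions. The median log2 fold change of lung IL-4+ over IFNγ+ cells was -1.24 over the heavy chain V regions, of which 77 were negative, and -0.01 over all regions in the table. It was -0.82 over the 28 Tcra/Tcrd V regions (26 negative, 46.4% without overlap) and -0.6 over the 26 Tcrb V regions (24 negative, 46.2%). Between segments it was -0.71 in Igh and -0.7 in Tcrg, and over Igk it was -0.53. It was above 0 over the Tcra/Tcrd D and J regions (0.07) and those from Trac to Dad1 (0.54). All 7 calls were lost without lung IL-4+ replicate 2 or 3 or without either IFNγ+ library, and 20 regions were called without lung IL-4+ replicate 1 or LN IL-4+ replicate 1 and 18 without LN IL-4+ replicate 2.

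Against LN IL-4+ cells, 26 antigen receptor regions (8.33%) were called higher in lung IFNγ+ cells, where 2.17% of all regions were. Of these, 22 lay in Igh, with 18 over V segments (22% of the 82), 3 between segments and 1 near a D segment, 2 lay in Tcrb and 2 in Tcrg. No member was called higher in LN IL-4+ cells by limma (0.862% of all regions were), where 3 had an unadjusted p below 0.05 and a 3-fold difference, array weights called 0 and voom on the rebuilt counts called 2. IFNγ+ libraries lay above LN IL-4+ libraries without overlap in 148 regions (47.4%) and in 72 heavy chain V regions (87.8%), against 26.5% of all regions. The median log2 fold change was 1.15 over the heavy chain V regions, 0.55 over the Tcrb V regions and -0.03 over all regions. Only 1 region remained called without IFNγ+ replicate 1 and 3 without replicate 2, whereas without LN IL-4+ replicate 1 there were 12 and without LN IL-4+ replicate 2 there were 48, with 1 more called lower. The 2 comparisons share the IFNγ+ libraries and are not independent of each other.

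Between the tissues, 1 antigen receptor region (0.321%) was called higher in lung IL-4+ than in LN IL-4+ cells, where 1.05% of all regions were, and 0 were called higher in LN IL-4+ cells (0.695% of all regions were), with 1 at an unadjusted p below 0.05 and a 3-fold difference and 0 by array weights or voom. Lung IL-4+ libraries lay above LN IL-4+ libraries in 30 of the 312 regions (9.62%), against 13.6% of all regions. The median log2 fold change was 0.13 over the heavy chain V regions and -0.03 over all regions. The call was lost without LN IL-4+ replicate 1 or any 1 of the lung IL-4+ or IFNγ+ libraries, and without LN IL-4+ replicate 2 there were 9 (2.88%), where 2.03% of all regions were called higher in lung IL-4+ cells.

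In the wide libraries alone, which leaves the 2 IFNγ+ libraries, lung IL-4+ replicate 1 and LN IL-4+ replicate 2 and allows no test, the IFNγ+ mean was above lung IL-4+ replicate 1 in 74 of the 82 heavy chain V regions, with a median log2 difference of 0.84, and above LN IL-4+ replicate 2 in 78, with a median of 1.04. The same medians were 0.37 and 0.06 over the Tcrb V regions, 0.11 and -0.35 over the Tcra/Tcrd V regions and -0.01 and -0.03 over all regions. With the sort of library as a covariate, 8 regions (2.56%) were called higher in IFNγ+ than in lung IL-4+ cells, where 0.655% of all regions were. Between IFNγ+ and LN IL-4+ cells 26 were called, 25 higher in IFNγ+ cells (8.01%, against 2.85% of all regions) and 1 lower (0.321%, against 1.77%). These calls shared 4 of the 7 and 20 of the 26 regions. The heavy chain V regions were thus higher in IFNγ+ cells also among libraries of like spread, by less than in the comparison of all libraries.

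**Figure D3:**
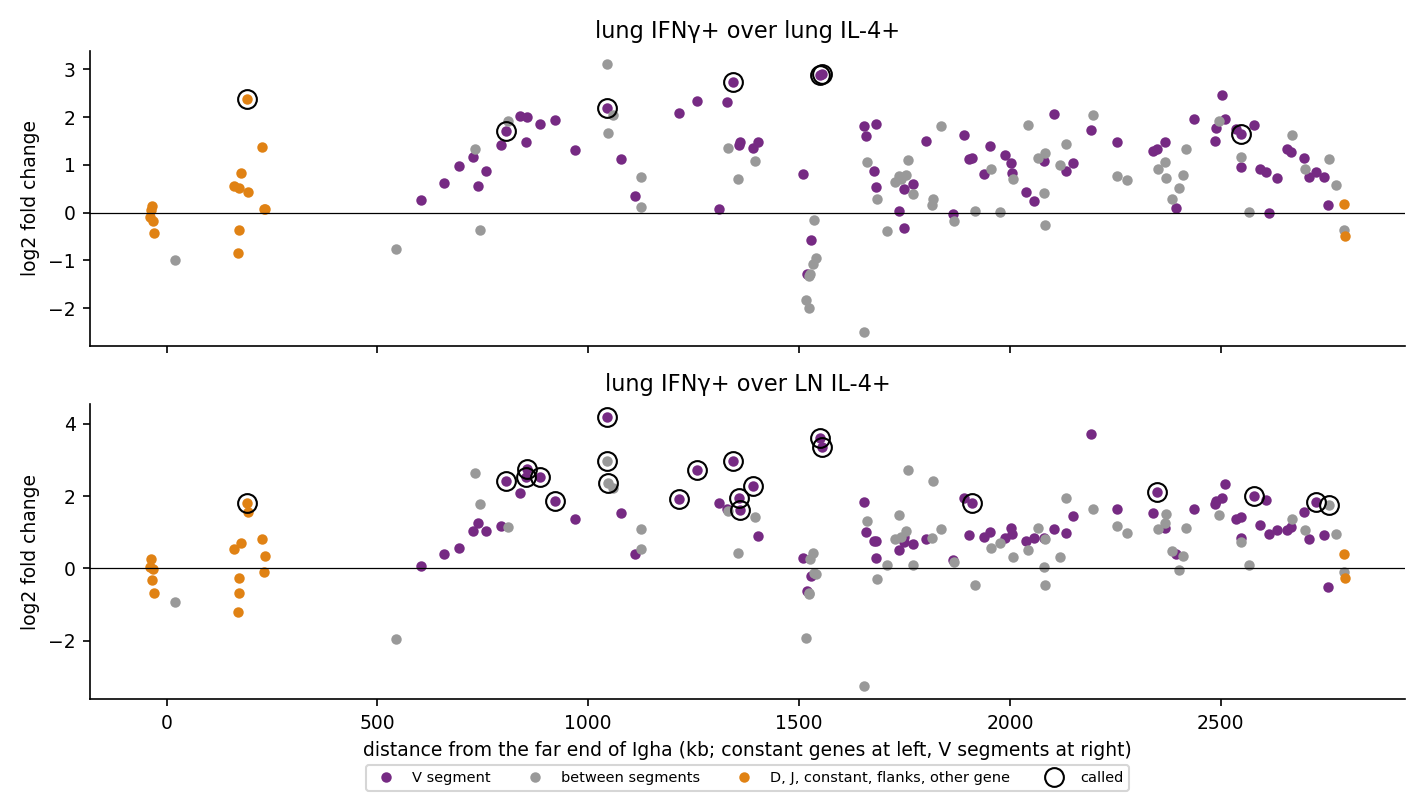
Log2 fold change (y axis) of each of the 162 Igh regions for lung IFNγ+ over lung IL-4+ cells (top) and lung IFNγ+ over LN IL-4+ cells (bottom), by distance in kb from the far end of Igha (x axis), with V segment regions in purple, regions between segments in grey, all others in orange, and a ring around each region called in either direction (7 at the top, 22 at the bottom). Most V segment regions lie above 0 in both panels, whereas the regions around the constant genes at the left lie around 0.

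Ighv9-4 had the largest fold change of the V segments called against LN IL-4+ cells. It encodes a functional variable segment of the Ighv9 family, and the region lay over its exon and its signal, at chr12:114299753-114300196. The log2 density was 1.12 and 2.66 in LN IL-4+, 4.21, 3.97 and 3.49 in lung IL-4+ and 6.20 and 5.95 in lung IFNγ+ libraries, so that the populations did not overlap. The log2 fold change of lung IFNγ+ over LN IL-4+ cells was 4.18 ± 0.43 (SE, limma, adjusted p = 0.00165), an 18.2-fold difference, and this call was made in 17 of 17 alternative settings of the analysis. The size depended on the LN IL-4+ libraries, with a log2 fold change of 3.41 without LN IL-4+ replicate 1 and 4.95 without LN IL-4+ replicate 2. Ighv9-4 was also the single region called between the tissues, where lung IL-4+ exceeded LN IL-4+ cells by 2.00 ± 0.39 (limma, adjusted p = 0.0261), a call made in 8 of the 17 settings, with 1.23 without LN IL-4+ replicate 1 and 2.77 without LN IL-4+ replicate 2. Between the lung populations it was 4.56-fold higher in IFNγ+ cells (log2 fold change of IL-4+ over IFNγ+ -2.19 ± 0.39, limma adjusted p = 0.0424), a call made in 10 of the 17 settings. With the sort of library as covariate this difference was -1.56, under the 3-fold needed, and the call ended.

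Its neighbours were called as well. A region 247 bp from the segment, at chr12:114299314-114299714, had log2 densities of 0.82 and -0.19, then 1.16, -0.66 and 0.01, then 3.39 and 3.18, and was 7.81-fold higher in IFNγ+ than in LN IL-4+ cells (limma, adjusted p = 0.0415). Another, 1310 bp away, was 5.09-fold higher (limma, adjusted p = 0.0268). In both, the IFNγ+ libraries were the highest and those of the IL-4+ populations overlapped. Over the 4 Ighv9 regions the median log2 fold change was 2.65 for IFNγ+ over LN IL-4+ cells, with 3 called. It was 1.12 over the 54 Ighv1 regions with 11 called, 1.87 over the 3 Ighv14 regions with 2 called and 0.91 over the 10 Ighv8 regions with 1 called.

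Several of the most changed regions lay over V pseudogenes, which cannot encode a receptor chain. The region over the pseudogene Ighv1-27 (chr12:114804421-114804829) was at 0.13 and 2.06 in LN IL-4+, 2.40, 1.58 and 1.5 in lung IL-4+ and 4.86 and 4.56 in lung IFNγ+ libraries. The one over the neighbouring pseudogene Ighv1-28 (chr12:114809208-114809628) was at -0.32 and 1.20, then 0.82, 0.93 and 0.90, then 4.08 and 3.51. That over the pseudogene Ighv1-10 (chr12:114597640-114598093) was at 1.23 and 1.79, then 2.35, 1.51 and 1.35, then 4.69 and 4.27. In all 3 both IFNγ+ libraries stood above every IL-4+ library. Each was called in both comparisons, 7.37-fold, 7.51-fold and 6.68-fold above lung IL-4+ cells (limma, adjusted p = 0.0436, 0.0394 and 0.0204) and 12.2-fold, 10.2-fold and 7.83-fold above LN IL-4+ cells (limma, adjusted p = 0.00839, 0.0102 and 0.00521). The log2 fold change over LN IL-4+ cells was 2.65 without LN IL-4+ replicate 1 and 4.57 without LN IL-4+ replicate 2 at Ighv1-27, and 2.59 and 4.12 at Ighv1-28. With the sort of library as covariate, Ighv1-27 differed by -2.01 in place of -2.88 for lung IL-4+ over IFNγ+ cells and by 2.95 in place of 3.61 for IFNγ+ over LN IL-4+ cells, and all 3 pseudogenes were still called in both comparisons.

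Of the functional segments, Ighv14-3 (chr12:114059541-114060104) was at 2.79 and 3.2 in LN IL-4+, 4.10, 3.73 and 3.25 in lung IL-4+ and 5.68 and 5.13 in lung IFNγ+ libraries. It was 3.27-fold above lung IL-4+ cells (limma, adjusted p = 0.0362) and 5.31-fold above LN IL-4+ cells (limma, adjusted p = 0.00404). Ighv1-74 (chr12:115802460-115802948), for which 61.6% of the 50-base stretches of the region occur once, was at 3.18 and 4.00, then 3.84, 3.19 and 3.10, then 5.14 and 4.89, and was 3.11-fold above lung IL-4+ cells (limma, adjusted p = 0.0464). In both the IFNγ+ libraries lay above all others. With the sort of library as covariate the log2 fold change of lung IL-4+ over IFNγ+ cells was -1.36 at Ighv14-3 and -1.14 at Ighv1-74, and both calls between the lung populations ended. Ighv9-2, Ighv1-5 and the pseudogene Ighv12-1 were called against LN IL-4+ cells only, with log2 fold changes of 2.75 ± 0.49, 2.72 ± 0.50 and 2.54 ± 0.58 (limma, adjusted p = 0.0139, 0.0155 and 0.0362). Whether these differ more from LN than from lung IL-4+ cells was not tested.

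The 7th region called between the lung populations was not at a V segment. It lay 1733 bp from the diversity segment Ighd3-2, at chr12:113446047-113446481, with log2 densities of 1.42 and 1.77, then 1.44, 0.94 and 0.67, then 3.23 and 3.58. IFNγ+ cells were 5.24-fold above lung IL-4+ cells (limma, adjusted p = 0.0347) and 3.51-fold above LN IL-4+ cells (limma, adjusted p = 0.0473). With the sort of library as covariate the second difference was 1.55 on the log2 scale and its call ended. The other 5 regions among the D and J segments were not called.

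**Figure D4:**
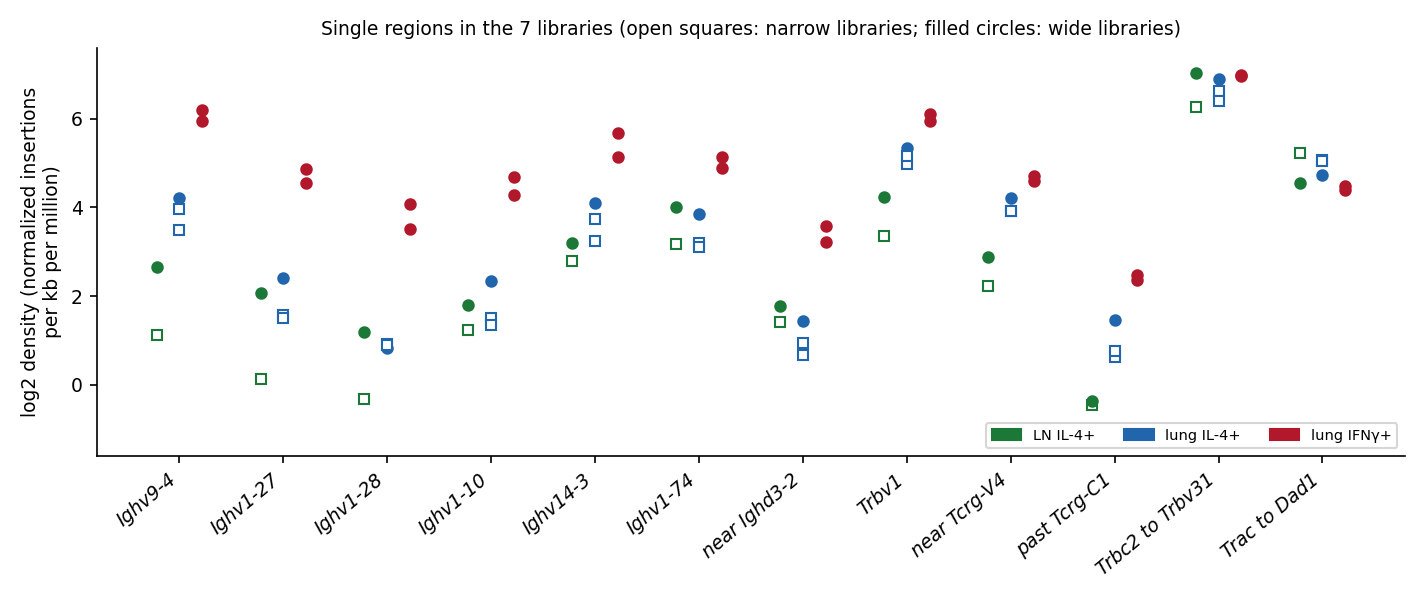
Log2 density in normalized insertions per kb on the CPM scale (y axis) of 12 regions in the 7 libraries, coloured by population, with open squares for narrow and filled circles for wide libraries. At the 7 Igh regions on the left the lung IFNγ+ libraries lie above all IL-4+ libraries, whereas the region between Trbc2 and Trbv31 varies between 6.26 and 7.04 with overlapping populations.

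The changes at V segments were examined against the letters behind them. The 54 heavy chain V segments, pseudogenes included, with ACCACA and a region over the signal had a median log2 fold change of 1.54 for IFNγ+ over LN IL-4+ cells, with 16 called, and the 20 without the letters had a median of 1.03, with 2 called. For lung IL-4+ over IFNγ+ cells the medians were -1.49 with 6 called and -1.0 with 0 called. The segments with ACCACA also had denser regions, at a median log2 density of 2.45 against 1.98 without the letters. The 18 called V regions against LN IL-4+ cells were all among the 65 that held TGTGGT in their central 401 bp, which are 79.3% of the 82 V regions. Both sorts of segment were thus higher in the IFNγ+ libraries, and the difference between them was not tested.

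Not all of the V array moved in this direction. Between Ighv1-23 and Ighv1-27, 9 weak regions from chr12:114771046 to chr12:114794403 ran the other way or were level. The one at chr12:114777254-114777654 was at 1.74 and -0.31 in LN IL-4+, 1.62, 2.39 and 2.05 in lung IL-4+ and 0.18 and -0.16 in lung IFNγ+ libraries. The LN IL-4+ library of the narrow sort stood with the lung IL-4+ libraries and that of the wide sort with the IFNγ+ libraries. None of the 9 was called in any comparison.

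The most open regions of the heavy chain locus were not called. The region with the highest log2 density among all members was at the start of Zfp386, a zinc finger gene at the edge of the window, at 6.58 to 7.43. Of the V segments, Ighv1-47 (chr12:114990900-114991802) was the most open, at 4.61 and 5.67 in LN IL-4+, 6.07, 5.72 and 5.08 in lung IL-4+ and 5.72 and 5.60 in lung IFNγ+ libraries, which is the 96.9th percentile of all regions. Its populations overlapped. The next was Ighv1-54 at 3.99 to 5.32. Beyond Igha, the most open region (chr12:113217322-113218264), 36566 bp past the gene, was at 3.97 to 4.66 and overlapped in all 3 populations.

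The intron between Ighj4 and Ighm held 3 regions, of which the densest (chr12:113424777-113427185) was at 3.49 and 3.06 in LN IL-4+, 3.03, 3.01 and 2.84 in lung IL-4+ and 2.63 and 2.56 in lung IFNγ+ libraries. The IFNγ+ libraries were the lowest, by 0.68 ± 0.29 on the log2 scale against LN IL-4+ cells (limma, adjusted p = 0.241), which is not a call. Its central 300 bases on the plus strand of mm10 are shown because this interval is known for the intronic enhancer, with E protein (CAGCTG), ETS (AGGAAGT) and Runx (ACCACA) letters in capitals.
Ighj4 to Ighm intron, chr12:113425832-113426131: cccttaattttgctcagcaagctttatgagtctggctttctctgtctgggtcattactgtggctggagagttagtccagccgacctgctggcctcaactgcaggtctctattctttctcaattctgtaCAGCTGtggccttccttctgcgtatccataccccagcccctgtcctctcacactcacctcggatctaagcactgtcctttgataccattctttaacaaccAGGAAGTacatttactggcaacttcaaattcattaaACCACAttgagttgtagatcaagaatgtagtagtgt

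In Tcrb, the locus of the receptor β chain, the most open region was not at a segment but between Trbc2 and Trbv31, 2603 bp from Trbv31, at chr6:41554269-41555088, the interval known to hold the Tcrb enhancer. Its log2 density was 6.26 and 7.04 in LN IL-4+, 6.90, 6.63 and 6.39 in lung IL-4+ and 6.96 and 6.98 in lung IFNγ+ libraries, the 99.5th percentile of all regions. The populations overlapped, and the difference of IFNγ+ over LN IL-4+ was 0.32 ± 0.24 (limma, adjusted p = 0.525), with -0.07 without LN IL-4+ replicate 1 and 0.71 without LN IL-4+ replicate 2. Its central 300 bases on the plus strand are shown, with Runx (ACCACA) and E protein (CAGGTG) letters in capitals.
Trbc2 to Trbv31, chr6:41554529-41554828: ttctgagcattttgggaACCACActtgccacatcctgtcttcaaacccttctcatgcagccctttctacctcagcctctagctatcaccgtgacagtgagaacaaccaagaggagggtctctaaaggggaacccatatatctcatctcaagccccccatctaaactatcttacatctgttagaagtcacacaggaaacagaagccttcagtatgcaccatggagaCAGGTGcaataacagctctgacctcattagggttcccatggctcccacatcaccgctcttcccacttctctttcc

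Of the β chain V segments, Trbv12-1 was the most open (chr6:41112972-41113632, 4.76 to 6.19 in the 7 libraries), and a region 139 bp from Trbd1 (chr6:41532548-41533062) was at 4.65 to 5.51. Neither was called. The 2 called segments were Trbv1 and Trbv15. Trbv1 (chr6:40890530-40891360), the V segment farthest from the D segments, was at 3.35 and 4.24 in LN IL-4+, 5.35, 4.97 and 5.15 in lung IL-4+ and 6.11 and 5.94 in lung IFNγ+ libraries. All 3 populations were separate, and IFNγ+ cells were 4.70-fold above LN IL-4+ cells (limma, adjusted p = 0.00314). Against lung IL-4+ cells they were 1.83-fold higher (limma, adjusted p = 0.167), and lung over LN IL-4+ cells differed by 1.36 on the log2 scale, and neither was called. Without LN IL-4+ replicate 2 the last difference was 1.81 and was called.

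Trbv15 (chr6:41140902-41141563) was weaker, at 0.50 and 1.58, then 1.83, -0.03 and 1.44, then 3.58 and 3.70, with the 2 IL-4+ populations overlapping and the IFNγ+ libraries above both. It was 6.06-fold above LN IL-4+ cells (limma, adjusted p = 0.0477). By interval, the 26 Tcrb V regions summed to 154 and 228, then 213, 179 and 195, then 257 and 260, whereas the 3 regions from Trbc2 to Trbv31 were between 140 and 171 in every library. The 3 regions at the D and J segments were highest in LN IL-4+ cells, at 127 and 107, against 71.7 to 90.9 in lung IL-4+ and 75.6 and 75 in lung IFNγ+ libraries, with 0 of the 3 called.

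Tcra/Tcrd was open at the far end of the array from its V segments. The J segments and the start of Trac, the constant gene of the α chain, carried 18 regions that made up 40.4% to 54.0% of the sum of the locus, and the 3 regions from Trac to Dad1, where the Tcra enhancer is known to lie, made up 40.8% to 44.7%. The broadest region (chr14:54208289-54222894, 14606 bp) spanned Traj9 to Traj1 and part of Trac and was the 6th widest of the whole table. Its log2 density was 4.20 and 3.32 in LN IL-4+, 3.44, 4.16 and 4.20 in lung IL-4+ and 3.12 and 3.24 in lung IFNγ+ libraries. The narrow libraries stood between 4.16 and 4.20 and the wide ones between 3.12 and 3.44, across the populations. The regions at its V side, over Traj21 to Traj11 (chr14:54198152-54208240) and Traj27 to Traj22 (chr14:54192056-54198138), were lower, at 1.88 to 3.63 and 1.56 to 3.21.

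The densest region of the locus lay 6519 bp past Trac, at chr14:54230725-54231533, with 4.89 and 4.95 in LN IL-4+, 5.31, 5.78 and 5.51 in lung IL-4+ and 4.80 and 5.0 in lung IFNγ+ libraries. Lung IL-4+ libraries lay above the others, by 0.63 on the log2 scale against IFNγ+ cells (limma, adjusted p = 0.169), and the region was not called. Of the 70 Tcra/Tcrd regions, 0 were called by limma in any comparison. At an unadjusted p below 0.05 and a 3-fold difference, IFNγ+ exceeded lung IL-4+ cells in 2 regions, LN exceeded lung IL-4+ cells in 1, IFNγ+ exceeded LN IL-4+ cells in 1 and LN IL-4+ exceeded IFNγ+ cells in 1. The 28 V regions summed to between 23.5 and 58.2, with the narrow libraries at 23.5 to 31.5.

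**Figure D5:**
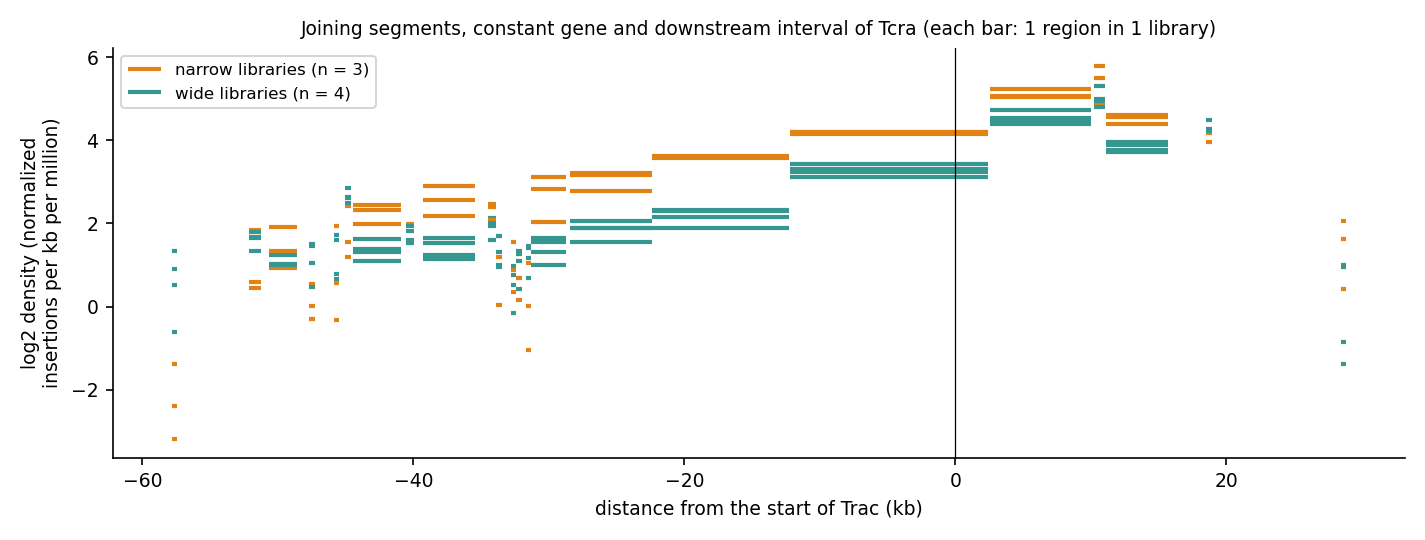
Log2 density in normalized insertions per kb on the CPM scale (y axis) of the regions around Trac by distance in kb from its start (x axis, J segments to the left), with a bar as wide as the region for each of the 3 narrow (orange) and 4 wide (teal) libraries. Density rises along the J segments towards Trac, and over the broad regions the narrow libraries lie above the wide ones (4.16 to 4.20 against 3.12 to 3.44 over the last J segments).

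The 8 regions of Tcrg, which encodes the γ chain that CD4+ αβ T cells do not display, were mostly weak. The densest lay in an intron of the predicted gene Gm31887, 2303 bp from Tcrg-V4 (chr13:19181908-19182671), at 2.22 and 2.88 in LN IL-4+, 4.21, 3.91 and 3.92 in lung IL-4+ and 4.60 and 4.70 in lung IFNγ+ libraries. All 3 populations were separate, and IFNγ+ cells were 4.30-fold above LN IL-4+ cells (limma, adjusted p = 0.00371). Another, 2580 bp past the constant gene Tcrg-C1 (chr13:19219604-19220392), was at -0.45 and -0.36, then 1.47, 0.63 and 0.76, then 2.37 and 2.48, also without overlap, and was 7.10-fold higher (limma, adjusted p = 0.0246). In this second region 61.8% of the 50-base stretches occur once, since the γ constant genes are copies of each other. The region over Tcrg-V6 was at -1.5 and 0.86, then 1.48, -0.41 and -0.55, then 2.83 and 2.35 and was not called (limma, adjusted p = 0.125). In the wide libraries alone, all 8 regions were higher in IFNγ+ cells than in both IL-4+ populations, by a median log2 difference of 1.67 over LN IL-4+ and 0.38 over lung IL-4+ cells.

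The light chain loci were nearly closed. Igk spans the longest window, and its open part lay between the last V segment, Igkv3-1, and Igkj1, the interval known for the Cer and Sis elements that govern Igk recombination. The region 7869 bp from Igkj1 (chr6:70714262-70714693) was at 4.71 and 5.68 in LN IL-4+, 5.07, 4.05 and 4.46 in lung IL-4+ and 5.70 and 5.36 in lung IFNγ+ libraries, and the one 5120 bp from Igkv3-1 (chr6:70709297-70709751) at 4.25 and 5.0, then 4.82, 4.28 and 3.98, then 5.11 and 5.08. These are the 94.8th and 92.8th percentiles of all regions. By contrast the region in the intron between Igkj5 and Igkc, where the intronic κ enhancer lies, was at -0.14 to 2.48, the 17.0th percentile. None of the 11 Igk regions and not the Igl region (chr16:19069237-19069637, -1.67 to 2.16) was called in any comparison, and 0 of the 12 passed at an unadjusted p below 0.05 and a 3-fold difference.

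Promoter regions of marker genes, within 1 kb of a transcription start, were summed to check the labelled cell type and the other cells that the sort could hold. All 15 CD4 T cell markers had a region, at a summed 886 to 1478 normalized insertions on the CPM scale, with the IFNγ+ libraries at 886 and 904. This sum followed the sort of library, at 1356 to 1478 in the narrow and 886 to 1017 in the wide libraries. Of 18 B cell markers, 9 had one. The densest were at Pou2af1, a coactivator of octamer factors (94.9th percentile of all regions), Pax5, a B lineage transcription factor (90.1st percentile), and Ebf1, another (86.5th percentile), whereas the surface and signalling genes Cd79a, Cd79b, Ms4a1 and Cd22 had none. The B cell sum was 84.5 and 101 in LN IL-4+, 73.8, 59.1 and 47.2 in lung IL-4+ and 70.7 and 73.6 in lung IFNγ+ libraries. Both IFNγ+ sums were below both LN IL-4+ sums, above lung IL-4+ replicates 2 and 3 and just below replicate 1. Mean log2 densities were higher in IFNγ+ than in lung IL-4+ cells at the densest Pou2af1 (5.06 against 4.59) and Pax5 (4.21 against 3.67) regions. They were also higher at Ebf1, Blk, Cr2, Bank1 and Blnk, and lower at Fcer2a, Cd72 and the weaker Pou2af1 and Pax5 regions. None of these regions was called. Within each IL-4+ population the B cell sums fell in the same order as the Igh V sums, and in the IFNγ+ population they did not. Plasma cell markers had regions at 2 of 5 genes, at 103 to 122, and Jchain, Tnfrsf17 and Fcrl5 had none. The IFNγ+ sums of 118 to 121 were above the lung IL-4+ range of 103 to 107. The densest region, at Derl3, had a mean log2 density of 7.89 in IFNγ+ and 7.55 in lung IL-4+ cells. The second Derl3 region (0.34 against 2.06) and both Sdc1 regions (0.98 against 1.56 and 2.12 against 2.72) ran the other way.

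Markers of γδ T cells outside the loci had regions at 3 of 5 genes, with sums of 15.6 to 17.1 in LN IL-4+, 15.8 to 22.3 in lung IL-4+ and 18.4 to 19.9 in lung IFNγ+ libraries and no region at Scart1 and Cd163l1. NK cell markers had regions at 4 of 6 genes (0 at Ncr1 and Klra8), at 30.6 to 36.1, 30.6 to 41.3 and 39.3 to 42.2, with 1 region, at Klrd1, called higher in IFNγ+ than in LN IL-4+ cells. CD8 T cell markers had 1 of 2 (0 at Cd8a), at 2.91 to 7.23. Of the other lists, 5 of 9 myeloid, 1 of 5 basophil and mast cell and 2 of 7 lung markers had a region, and none of these regions was called. In bulk libraries, a few open cells and a slight opening in all cells cannot be told apart, and the part of other cells in the differences at Igh and Tcrg was not tested beyond these values.

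The machinery that acts on these loci was examined through the promoters of 22 genes of recombination, end joining, antibody diversification and receptor signalling, of which 17 had a region. Rag1, which encodes a subunit of the recombinase, had no region at its promoter, nor did Ptcra, the surrogate α chain of developing T cells, Igll1, of the surrogate light chain, or Cd79a and Cd79b, the signalling chains of the B cell receptor. Rag2 was weak at 0.16 to 2.34, and Dntt, which adds bases at the joints, at -0.26 to 1.77. The end joining genes Lig4, at 6.38 to 7.13, and Prkdc, at 6.59 to 7.25, which every cell uses to repair DNA, were among the most open promoters. Of the 41 regions, limma called 0 in all 3 comparisons, and the sums of the list were 1005 and 1014 in LN IL-4+, 930, 931 and 919 in lung IL-4+ and 979 and 964 in lung IFNγ+ libraries.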

How the data were processed

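Per the labels and methods, adapters were trimmed with skewer and 50-cycle paired-end reads were mapped to GRCm38/mm10 with Bowtie2 2.3.2. Duplicates were marked, and unmapped, improperly paired, mitochondrial and blacklisted reads and those with a mapping quality under 10 were removed. MACS2 2.1.1 summits called per replicate were merged into regions. The deposited table holds log2 values, which the authors made by counting insertions per region, normalizing with voom (limma 3.38.3, R 3.5.1) and dividing by region length. The values also coincide in rank between libraries as after quantile normalization, a step that the sources used here do not name. Library depth was rebuilt from tied values (equal to 8 decimals) and is a lower bound. The precision rests on the 7 libraries, and counting error was not modelled.

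Here, all 113820 regions were fitted with limma 3.58.1 in R 4.3.3 (lmFit, eBayes with trend, 1 mean per population) and contrasts were adjusted by Benjamini-Hochberg over all regions. Regions counted as called where the adjusted p lay below 0.05 and the difference reached 3-fold. The fit was tested on simulated data. Segments came from GENCODE and sequences from the mm10 assembly of RefSeq. Sums used antilog values times region length. Named regions were the called members (at most 10 per comparison and direction, by fold), the 3 densest per locus and the densest of each enhancer interval, and others in the text were chosen after their values were seen. The members and gene lists were chosen with earlier results of these data known. Alternatives were another pseudocount, a filter at density 5, median centring, quantile normalization, other fold thresholds, array weights, voom on rebuilt counts, covariates and each library left out. Python 3.11.15 was used.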

Additional observations from a re-analysis of the deposited data

How the results depend on the processing

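Of the regions called, 0 changed direction in any alternative. Of the differences printed for regions not called, 1 did, between Trbc2 and Trbv31 (lung IFNγ+ over LN IL-4+, 0.32), which was -0.07 without replicate 1 of LN IL-4+. By contrast, counts of calls depended on the fit. The number of regions called between the lung populations (7) was 14 on log2 of the density plus 1, 4 with median centring, 20 with the 2 populations alone, 58 with array weights, 16 with voom on rebuilt counts and 0 to 20 with a library left out. Between the tissues (1) it was 0 with the 2 populations alone and with voom, 6 with the sort of library as covariate, 3 at a fold of at least 2 or with no fold threshold and 0 to 9 with a library left out. For lung IFNγ+ against LN IL-4+ (26) it was 1 to 49 with a library left out. In the alternatives without 1 LN or IFNγ+ library the remaining library is assumed to vary like those of the other populations. Of all regions, 0.534% were called higher in IFNγ+ and 0.0764% higher in lung IL-4+ cells on log2 of the density plus 1. These shares were 0.386% and 0.0615% with median centring, 0.792% and 0.258% with the 2 populations alone and 0.738% and 0.221% with voom. With array weights they were 3.02% and 2.74%, and 4 of the 58 members were higher in lung IL-4+ cells. Between the tissues, the covariate fit called 2.14% higher and 1.39% lower in lung IL-4+ cells. The cause of these shifts was not tested.

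A replicate block gave 0, 0 and 2 calls in the 3 comparisons, and over all regions it called 0 in the first 2 of them. In the third it called 0.411% of all regions higher and 0.0773% lower in IFNγ+ than in LN IL-4+ cells. Libraries with the same number did not deviate together (r between -0.542 and 0.057). In a population of 2 libraries, however, both deviate from their mean by equal and opposite amounts. The check therefore cannot tell whether libraries of the same number share a mouse, and the numbers were not treated as pairs. A replicate block with the sort of library as covariate, chosen after seeing the data, gave 16, 8 and 38.

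With each library left out in turn, the log2 difference of lung IFNγ+ over LN IL-4+ cells was 0.55 to 0.92 at Igh, 1.20 to 1.5 at Tcrg, -0.83 to -0.19 at Tcra/Tcrd, -0.03 to 0.26 at Tcrb, -0.06 to 0.71 at Igk and -0.40 to 1.80 at Igl. For lung IL-4+ over LN IL-4+ cells it was -0.08 to 0.30 at Igh, 0.64 to 0.93, -0.28 to 0.37, -0.25 to 0.05, -0.75 to 0.02 and 0.32 to 2.52 in the same order of loci. For lung IL-4+ over IFNγ+ cells it was -0.75 to -0.51, -0.64 to -0.46, 0.46 to 0.72, -0.24 to -0.18, -0.87 to -0.56 and 0.06 to 1.52. The mean of log2 densities, which weights regions equally, turned the direction at Tcra/Tcrd to -0.57, -0.31 and 0.26 for lung IL-4+ over IFNγ+, lung IL-4+ over LN IL-4+ and IFNγ+ over LN IL-4+ cells. The summed CD4 T cell promoters of lung over LN IL-4+ cells were at -0.22 to 0.27 with a library left out, below 0 without replicate 2 of LN IL-4+ (-0.22) or replicate 2 (-0.04) or 3 (-0.11) of lung IL-4+. Depth limits the weakest regions.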
